A study of Mus musculus with 4 samples.

Results

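Ccr2 and Cx3cr1 encode the chemokine receptors by which mouse monocytes and macrophages are commonly told apart, and their UMI counts were followed in single colonic cells across diet and along the monocyte to macrophage axis. Both genes were chosen by symbol, and they are 2 of the 11820 genes in the deposited matrix. Single cells were sorted from the colonic lamina propria of 4 male C57/Bl6N mice, 6 to 7 weeks old, as live CD45+Lin-CD11b+CD24- cells positive for Ly6C or CD64. Mice 9 and 11 had been given chow and mice 1 and 3 a coconut-based high-fat diet (HFD, D12331, labelled as 60%) for 1 week, and the cells of each mouse were loaded in a well of their own. No mouse carried an engineered allele according to the labels. The replicates are therefore separate animals, with n = 2 per diet, and an exact permutation test over mice cannot give a p under 0.333.

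CCR2 is the receptor for CCL2 and related chemokines, and it is needed for Ly6C-high monocytes to leave the bone marrow and reach the gut. CX3CR1 binds fractalkine, the product of Cx3cl1, and is high on resident intestinal macrophages, including those that extend processes between epithelial cells. In the colon, incoming monocytes are known to lose Ly6C, gain MHC class II and then mature into C1q-expressing macrophages, and in that course CCR2 is lost and CX3CR1 gained. Both receptors signal through inhibitory G proteins.

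The 2 genes lie on chromosome 9 of GRCm38, 4.03 Mb apart. Ccr2 (ENSMUSG00000049103) spans chr9:124101950-124113557 on the plus strand, and Cx3cr1 (ENSMUSG00000052336) spans chr9:119901616-120069879 on the minus strand. Both spans begin upstream of the RefSeq starts used next, so that most of the Ccr2 window and all of the Cx3cr1 window lie inside them. The 250 bases before each RefSeq start (RefSeq, GRCm38.p6) are shown because the genes moved in opposite directions between diets. Ccr2 is read from chr9:124101933-124102182 on the plus strand and Cx3cr1 from chr9:120068297-120068546 on the minus strand, each 5′ to 3′. Capitals mark GGAA, the core of ETS factor motifs such as that of PU.1, on either strand.
Ccr2: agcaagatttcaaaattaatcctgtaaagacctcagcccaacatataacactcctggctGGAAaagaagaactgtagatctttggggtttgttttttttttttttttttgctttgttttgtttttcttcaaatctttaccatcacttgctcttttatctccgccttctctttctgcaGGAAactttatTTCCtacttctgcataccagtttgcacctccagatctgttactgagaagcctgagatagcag
Cx3cr1: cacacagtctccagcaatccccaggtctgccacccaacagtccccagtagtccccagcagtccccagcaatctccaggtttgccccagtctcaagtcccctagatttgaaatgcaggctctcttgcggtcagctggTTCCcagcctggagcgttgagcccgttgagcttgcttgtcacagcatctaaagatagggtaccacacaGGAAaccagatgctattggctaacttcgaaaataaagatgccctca
GGAA occurred 3 times before Ccr2 and 2 times before Cx3cr1, and 93.4% of 32851 promoter windows of this length held it. The RUNX core TGTGGT and the CCAAT box CCAAT, also sought on both strands, each had 1 match before Cx3cr1 and 0 before Ccr2, and were held by 14.0% and 33.8% of the windows. TATAAA had 0 matches before both genes and was held by 12.4%. These motifs were chosen after the sequences had been seen, and a match is a description of letters and no measured binding. GC content was 37.2% before Ccr2 and 53.6% before Cx3cr1.

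The matrix held 5420 cells, with 904, 2002, 966 and 1548 cells from Chow mice 9 and 11 and HFD mice 1 and 3, between 3824228 and 7947893 UMIs per mouse and median depths of 3266 to 3926 UMIs per cell. Each UMI marks 1 captured molecule at its 3′ end, so levels are given as CPM, a gene's part of all UMIs summed over a mouse or gate, without division by length. All 7 macrophage and monocyte markers were found in every mouse, with Itgam, which encodes CD11b, at only 0.904 to 2.88 CPM. Summed dendritic cell markers (7 of 7 in the matrix) stood at 66.8 to 77.5 CPM on chow and 263 to 271 on HFD, neutrophil markers (3 of 6) at 27.1 to 29.0 and 70.4 to 124, T or NK cell markers (7 of 7) at 1.57 to 3.40 and 4.45 to 19.0, and B or plasma cell markers (3 of 5, nearly all Igha and Jchain) at 3729 to 4587 and 1296 to 2626. Ncr1 was at 0 in every mouse. The dendritic cell list holds Ccr7. Alone, Ccr7 stood at 12.8 and 12.0 CPM in Chow mice 9 and 11 and at 120 and 107 in HFD mice 1 and 3. Epithelial markers (4 of 5) stood at 8.61 to 32.2 on chow and 22.7 to 147 on HFD. The part of these cells in the receptor levels was not tested. The same barcode occurred in more than 1 library for 23 barcodes, or 46 cells.

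Over all cells of a mouse, HFD-fed mice held more Ccr2 and much less Cx3cr1 than chow-fed mice. Ccr2 was measured at 283 and 321 CPM in Chow mice 9 and 11 and at 720 and 626 in HFD mice 1 and 3. Cx3cr1 was measured at 453 and 507 on chow and at 121 and 96.0 on HFD. In both genes the diets did not overlap (exact permutation p = 0.333 each, two-sided, the smallest possible with n = 2). The share of all genes without overlap was not computed, here or in the gates below. The marker lists that mark both ends of the axis moved with them. The 4 other genes of the Ly6C-high monocyte list summed to 949 to 1203 CPM on chow and 9536 to 10664 on HFD, and the 6 other genes of the resident macrophage list to 20733 to 23215 on chow and 7954 to 8278 on HFD. After TMM normalization, which moves fold changes away from the plain ratio of CPM, edgeR's quasi-likelihood test gave a log2 fold change of 0.93 (SE 0.13, adjusted p = 0.00316) for Ccr2 and -2.37 (SE 0.16, adjusted p = 0.000249) for Cx3cr1. At this FDR of 1%, 16.2% of 4955 genes were called. Without HFD mouse 1 the adjusted p of Ccr2 from edgeR was 0.0241, without HFD mouse 3 it was 0.0179, and the call was then lost. In such sums a change in the share of a cell type and a change in RNA per cell cannot be told apart.

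The UMIs of both receptors were also set against each other within each mouse, summed over its cells. Ccr2 supplied 38.4% of the Ccr2 and Cx3cr1 UMIs in Chow mouse 9 (95% Clopper-Pearson interval 36.6 to 40.3) and 38.8% in Chow mouse 11 (37.6 to 40.0). It supplied 85.6% in HFD mouse 1 (84.3 to 86.8) and 86.7% in HFD mouse 3 (85.6 to 87.7). The mean share was 38.6% ± 0.281 (SD, n = 2) on chow and 86.1% ± 0.801 (SD, n = 2) on HFD, a difference of 47.5 percentage points with no overlap (exact permutation p = 0.333, two-sided, the smallest possible). These intervals, and all others here, cover counting error only.

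To place the receptors along maturation, cells were gated on 8 other genes. C1q-high cells held C1qa, C1qb and C1qc at 50 or more per 10000 UMIs. The remaining cells were divided into Ly6c2+ MHC II-low (at least 2 UMIs of Ly6c2, and H2-Aa, H2-Ab1, H2-Eb1 and Cd74 below 300 per 10000 UMIs), Ly6c2+ MHC II-high and Ly6c2- MHC II-high cells, leaving 403 cells ungated. C1q-high cells made up 82.4% and 90.5% of the cells on chow against 41.3% and 36.0% on HFD, and Ly6c2+ MHC II-low cells 5.31% and 2.997% against 25.7% and 21.1%. Only 2 and 12 cells of the chow mice were Ly6c2+ MHC II-high, so that gate was not tested between diets.

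In Ly6c2+ MHC II-low cells, the most monocyte-like gate, Ccr2 was at 615 and 873 CPM on chow and 1204 and 923 on HFD. The diets did not overlap there, but edgeR did not call the difference (log2 fold change 0.34, SE 0.22, adjusted p = 0.557), and the value ran from 0.081 without Chow mouse 9 to 0.66 without Chow mouse 11. Cx3cr1 was low in this gate, at 99.5 and 188 CPM on chow, from 16 and 39 UMIs, and 53.7 and 59.0 on HFD. Its log2 fold change was -1.55 (SE 0.36, edgeR adjusted p = 0.0202), and edgeR called 1.19% of 4634 genes in this gate. Without Chow mouse 9 the change was -1.94 and was called (edgeR adjusted p = 4.4e-05). Without Chow mouse 11 it was -0.95 (edgeR adjusted p = 0.277), and without HFD mouse 1 or 3 it was -1.47 or -1.61 (edgeR adjusted p = 0.194 and 0.112). Ly6c2 itself averaged 2214 and 2058 CPM in this gate on chow and HFD, with overlap between mice.

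In Ly6c2- MHC II-high cells, Cx3cr1 stood at 161 and 280 CPM on chow and only 29.4 and 38.4 on HFD. The log2 fold change was -2.77 (SE 0.38, edgeR adjusted p = 0.00520), and 1.02% of 4612 genes were called. These levels rest on 18 and 32 UMIs in 40 and 43 chow cells, and edgeR's adjusted p was 0.0425 without Chow mouse 11, 0.683 without HFD mouse 1 and 0.689 without HFD mouse 3. Ccr2 had the opposite order to the whole-mouse sums in this gate. It was measured at 1022 and 848 CPM on chow and 531 and 591 on HFD, without overlap (log2 fold change -0.83, SE 0.18, edgeR adjusted p = 0.0435, not called). A Ccr2 UMI was found in 57.9% of cells on chow and 60.7% on HFD on average, with overlap. Cells of the diets were not alike in the gate genes. Ly6c2 averaged 35.2 CPM on chow and 85.9 on HFD. C1q averaged 19.5 and 12.0 and MHC II 825 and 729 per 10000 UMIs, all without overlap.

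C1q-high cells were the most resident-like gate and held most cells of the chow mice. Cx3cr1 was at 489 and 526 CPM on chow and at 213 and 158 on HFD, with a log2 fold change of -1.59 (SE 0.17, edgeR adjusted p = 0.000446), and 9.66% of 5095 genes were called. Ccr2 was at 223 and 278 on chow and 472 and 438 on HFD without overlap, and its log2 fold change of 0.72 (SE 0.15, edgeR adjusted p = 0.0104) lay just outside the FDR of 1%. The Ccr2 value was 0.58 without Chow mouse 9, 0.87 without Chow mouse 11, 0.65 without HFD mouse 1 and 0.81 without HFD mouse 3. C1q in this gate averaged 198 ± 6.36 per 10000 UMIs on chow and 159 ± 6.90 on HFD (SD, n = 2), and Ly6c2 19.8 ± 8.90 and 155 ± 95.1 CPM, so C1q-high cells of the diets were not alike in these genes. The diet difference in C1q-high cells was not distinguishable from that in Ly6c2+ MHC II-low cells, for Ccr2 (interaction log2 0.33, SE 0.20, edgeR adjusted p = 0.454) or Cx3cr1 (-0.11, SE 0.33, edgeR adjusted p = 0.918), where 1% of 4301 genes were called.

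**Figure D1:**
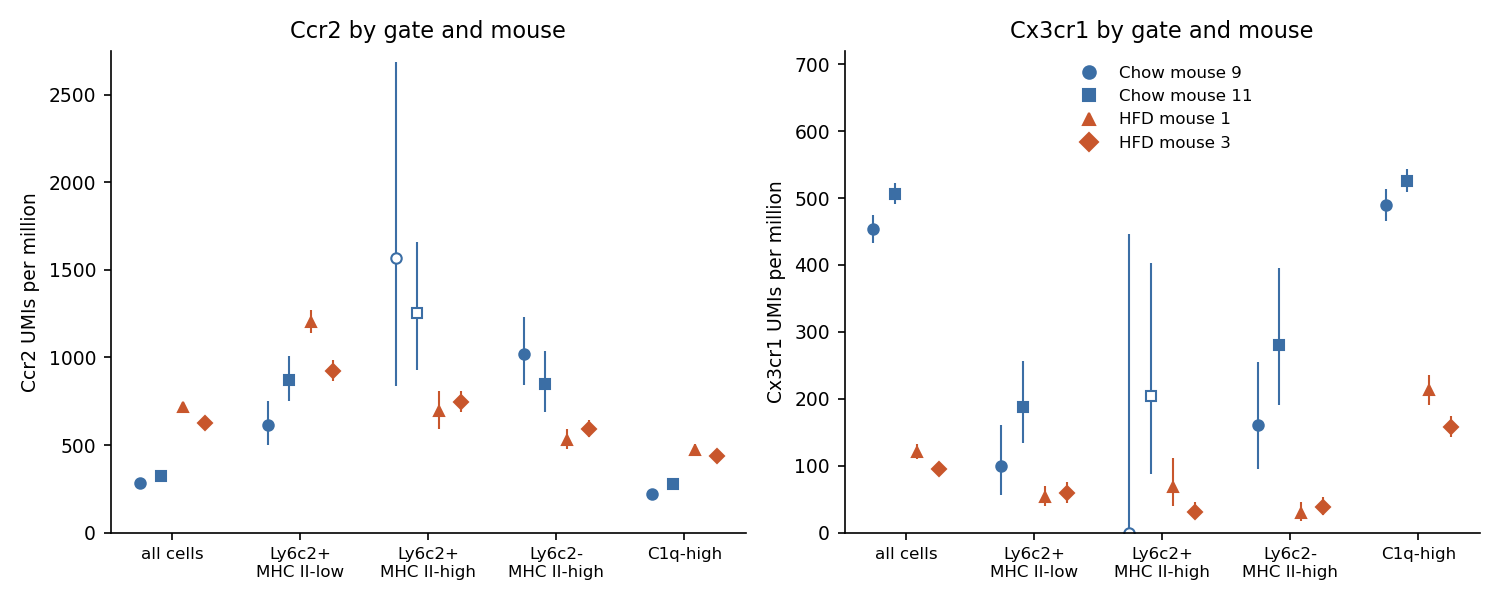
CPM of Ccr2 (left) and Cx3cr1 (right) in each mouse, over all cells and in each gate, with exact 95% Poisson intervals that cover counting error only and open symbols for sums of fewer than 20 cells. In C1q-high cells both HFD mice lie above both chow mice in Ccr2 and below them in Cx3cr1.

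Levels were next compared between gates with the mouse as a block and the 8 gate genes left out of the tests. From Ly6c2+ MHC II-low to C1q-high cells Ccr2 fell by 1.27 on the log2 scale (SE 0.23, edgeR adjusted p = 0.000349). Cx3cr1 rose over the same step, with a log2 fold change of 1.86 (SE 0.22, edgeR adjusted p = 3.8e-06), and 17.9% of 5024 genes were called. Both changes were found in each diet alone. Ccr2 fell by 1.46 in chow mice (edgeR adjusted p = 4.5e-06) and by 1.08 in HFD mice (edgeR adjusted p = 2.0e-06), and Cx3cr1 was higher by 1.92 (edgeR adjusted p = 3.7e-06) and 1.84 (edgeR adjusted p = 1.4e-06).

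The stretch of this path over which Ccr2 was lower differed in its values between diets. From Ly6c2+ MHC II-low to Ly6c2- MHC II-high cells Ccr2 had a log2 fold change of -0.35 over all mice (SE 0.24, edgeR adjusted p = 0.419), with 6.27% of genes called. It ran from -0.071 without HFD mouse 1 to -0.69 without Chow mouse 9 (edgeR adjusted p = 0.0417), and neither was called. In HFD mice alone Ccr2 fell by 0.91 at this step (edgeR adjusted p = 3.9e-05), and in chow mice alone the value was 0.21 (edgeR adjusted p = 0.714). From Ly6c2- MHC II-high to C1q-high cells the log2 fold change of Ccr2 was -0.92 over all mice (SE 0.24, edgeR adjusted p = 0.0216), with 3.66% of genes called. Without HFD mouse 1 it was -1.22 and called (edgeR adjusted p = 0.00463), and without HFD mouse 3 -1.16 (edgeR adjusted p = 0.0106). Without Chow mouse 9 it was only -0.56 (edgeR adjusted p = 0.123) and without Chow mouse 11 -0.74 (edgeR adjusted p = 0.160). In chow mice alone Ccr2 fell by 1.67 at this step (edgeR adjusted p = 3.6e-06), and in HFD mice alone the value was -0.17 (edgeR adjusted p = 0.530). The difference between diets in these steps was not tested.

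Cx3cr1 was gained at the last step. From Ly6c2- MHC II-high to C1q-high cells its log2 fold change was 2.01 (SE 0.24, edgeR adjusted p = 2.1e-05), with 1.46 in chow mice alone (edgeR adjusted p = 0.000500) and 2.54 in HFD mice alone (edgeR adjusted p = 6.1e-07). At the step before, from Ly6c2+ MHC II-low to Ly6c2- MHC II-high cells, it was -0.16 (SE 0.27, edgeR adjusted p = 0.795). In chow mice alone the value at that step was 0.46, and over all alternatives run it ranged from -0.70 to 0.46. The HFD mice held 51 and 215 cells of the Ly6c2+ MHC II-high gate, in which Ccr2 was at 692 and 746 CPM and Cx3cr1 at 68.8 and 31.4. Within HFD mice, Ccr2 fell by 0.52 from Ly6c2+ MHC II-low to Ly6c2+ MHC II-high cells (SE 0.13, edgeR adjusted p = 0.00572, 5.76% of genes called). From there to Ly6c2- MHC II-high cells the value was -0.40 (SE 0.13, edgeR adjusted p = 0.202, 0.63% of genes called). Cx3cr1 passed the test at neither of these steps, with -0.38 (edgeR adjusted p = 0.572) and -0.32 (edgeR adjusted p = 0.884).

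The Ccr2 level of C1q-high cells was 36.3%, 31.9%, 39.2% and 47.5% of that in Ly6c2+ MHC II-low cells of Chow mice 9 and 11 and HFD mice 1 and 3. For Plac8 and Chil3, monocyte markers that set no gate, the same ratio was 0.770% to 14.4% and 0.415% to 4.93%, and it was higher in both HFD mice than in both chow mice. The Cx3cr1 level of Ly6c2+ MHC II-low cells was 20.3%, 35.7%, 25.2% and 37.4% of that in C1q-high cells. RNA from other cells can add UMIs to a gate, and its part in these levels was not tested. Empty droplets, which measure free RNA, were not analysed here.

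Ccr2 supplied most receptor UMIs in every gate of low C1q, in both diets. Its share in Ly6c2+ MHC II-low cells was 86.1% and 82.3% on chow and 95.7% and 94.0% on HFD. In Ly6c2- MHC II-high cells it was 86.4% and 75.2% on chow and 94.8% and 93.9% on HFD. Summed over C1q-high cells, Ccr2 was the minor receptor on chow, at 31.3% (29.5 to 33.2) and 34.6% (33.4 to 35.8). It was the major one on HFD, at 68.9% (66.1 to 71.6) and 73.5% (71.2 to 75.8). The C1q bins 3, 4 and 5 described below lie inside this gate. In HFD mice 1 and 3 the share was 86.0% and 83.3% in bin 3 and 64.8% and 69.4% in bin 4. In bin 5, the highest in C1q, it was 41.3% and 45.6%, so Ccr2 was the minor receptor there on HFD too. In Chow mice 9 and 11 it was 41.8% and 45.5% in bin 3, 23.7% and 34.1% in bin 4, and 28.8% and 27.6% in bin 5. Over the whole C1q-high gate the share differed by 38.2 percentage points between diets, with 10.7 in Ly6c2+ MHC II-low and 13.5 in Ly6c2- MHC II-high cells. The part of the C1q level of a cell in the 38.2 points was not tested. The diets did not overlap in these 3 gates (exact permutation p = 0.333 each, the smallest possible with n = 2). In Ly6c2+ MHC II-high cells they did, with shares of 100% and 86.0% on chow, from 2 and 12 cells, and 91.0% and 96.0% on HFD (exact permutation p = 1).

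**Figure D2:**
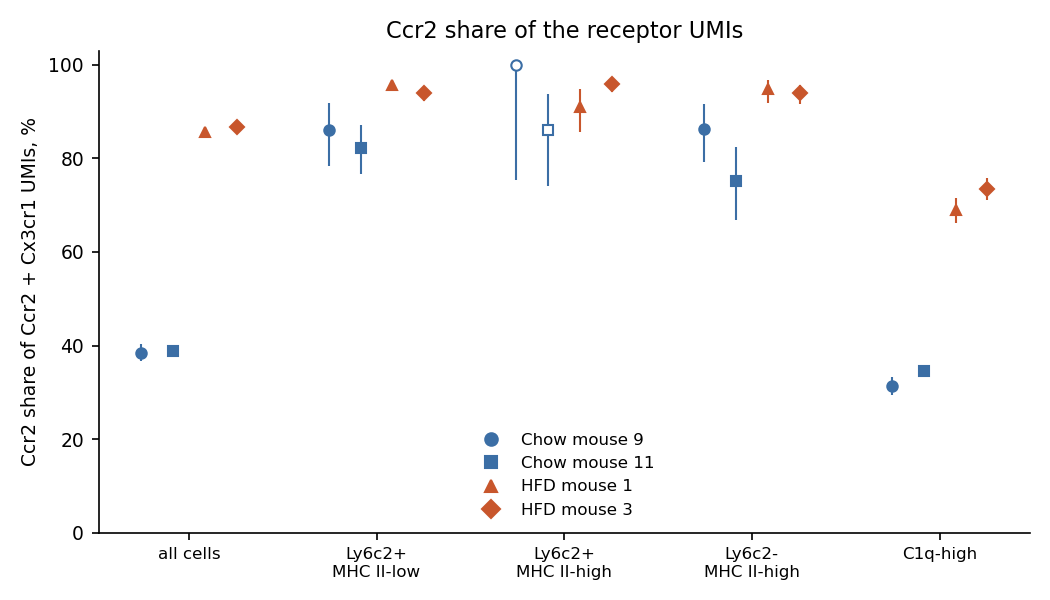
Ccr2 share of the summed Ccr2 and Cx3cr1 UMIs, in percent, for each mouse over all cells and in each gate, with exact 95% intervals and open symbols for sums of fewer than 20 cells. C1q-high cells hold 31.3% and 34.6% on chow and 68.9% and 73.5% on HFD.

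Because the gates changed in number, each mouse's level was also computed with the same gate shares. With the mean chow shares, Ccr2 stood at 293 and 366 CPM on chow and 528 and 492 on HFD, a 1.55-fold difference without overlap against 2.23-fold as observed. With the mean HFD shares, Ccr2 stood at 627 and 687 on chow and 716 and 658 on HFD, a ratio of 1.05 with overlap. That value rests in part on the 2 and 12 chow cells of the Ly6c2+ MHC II-high gate. Without that gate it was at 526 and 627 on chow and 719 and 649 on HFD, a ratio of 1.19 without overlap, and the ratio with chow shares was 1.57. With equal weight for the 3 gates that held 20 cells or more in every mouse the ratio for Ccr2 was 1.08, with overlap. With equal weight for all 4 gates the order turned, with 858 and 813 on chow above 725 and 675 on HFD, and it stayed so with the ungated cells added (ratio 0.893). That turn rests on the 2 and 12 chow cells of the Ly6c2+ MHC II-high gate, where Ccr2 was at 1570 and 1254 CPM. Under each weighting without that gate Ccr2 averaged higher on HFD. The direction of the Ccr2 difference at equal gate shares therefore depended on the weight of that gate. Cx3cr1 stayed lower in HFD mice under every weighting run, by 2.78-fold to 3.16-fold against 4.42-fold as observed, without overlap. No test was made of these values.

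Single cells held both receptors, 1 or neither, and after every cell had been thinned to 2000 UMIs the largest differences were in cells with only 1. Cells with Ccr2 alone made up 16.5% and 16.6% of the cells on chow and 53.1% and 54.0% on HFD. Cells with Cx3cr1 alone made up 37.7% and 38.6% on chow and 9.28% and 5.15% on HFD. Cells with both were found at 11.5% and 15.7% on chow and 7.22% and 6.62% on HFD, and cells with neither at 34.3% and 29.0% against 30.4% and 34.2%. Mice of the diets overlapped only in the last class (exact permutation p = 1, and 0.333 in the other 3). Thinning left out 111, 356, 190 and 325 cells below 2000 UMIs. Without thinning, cells with both were 23.4% ± 3.40 on chow and 12.7% ± 0.261 on HFD, with Ccr2 alone 14.2% ± 1.29 and 56.6% ± 1.96, with Cx3cr1 alone 41.9% ± 1.79 and 7.83% ± 2.39, and with neither 20.5% ± 0.322 and 23.0% ± 0.697 (SD, n = 2).

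**Figure D3:**
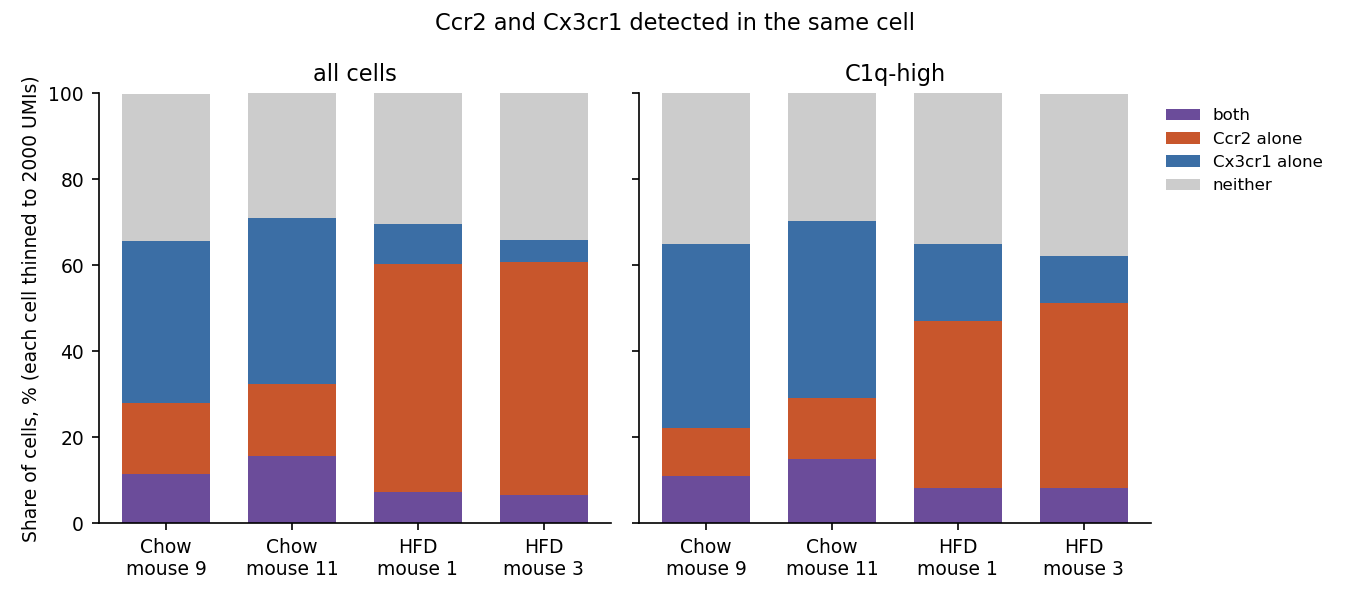
Share of cells, in percent, with a UMI of both receptors, of Ccr2 alone, of Cx3cr1 alone or of neither in each mouse, over all cells (left) and in C1q-high cells (right), each cell thinned to 2000 UMIs. The cells with Ccr2 alone take 16.5% and 16.6% on chow and 53.1% and 54.0% on HFD.

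In C1q-high cells alone the same order was found. Cells with Ccr2 alone made up 11.3% and 14.1% on chow and 39.0% and 43.0% on HFD, and cells with Cx3cr1 alone 42.7% and 41.1% against 17.8% and 11.1%. Cells with both were 10.9% and 15.0% on chow and 8.16% and 8.18% on HFD. In Ly6c2+ MHC II-low cells the share with both averaged 14.4% ± 6.91 on chow and 7.62% ± 0.533 on HFD, and that with Ccr2 alone 52.5% ± 0.177 and 69.3% ± 3.20 (SD, n = 2). Ly6c2- MHC II-high cells had another pattern. Cells with Ccr2 alone made up 52.8% ± 3.93 there on chow, from 27 and 24 cells, and 50.7% ± 1.03 on HFD (SD, n = 2), with overlap. Cells with neither receptor made up 25.5% ± 0.655 on chow and 44.7% ± 1.47 on HFD (SD, n = 2), and cells with both 18.5% and 12.5% against 3.39% and 3.40%, both without overlap. Without thinning this gate followed the order of C1q-high cells. Ccr2 alone was then at 33.8% ± 1.73 on chow and 55.1% ± 3.24 on HFD (SD, n = 2), without overlap. Neither was at 31.4% ± 1.60 and 36.3% ± 3.94 (SD, n = 2), also without overlap. Thinned to 1000 or 3000 UMIs, Ccr2 alone overlapped between diets, and neither was higher on HFD by 13.7 and 13.6 points. Cells with both receptors were somewhat fewer than the product of both detection shares would give, at 0.833 and 0.895 times that number on chow and 0.725 and 0.927 times on HFD over all cells. These ratios are a description. A cell without a UMI may still express the gene. No group of cells lacking both genes was set apart here, so no background share is set beside these.

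The detection classes without thinning were then placed in the gates, beside the share of C1q-high cells over all cells of the same mice. On chow 81.6% and 89.9% of cells with both receptors were C1q-high, against 82.4% and 90.5% of all cells. On HFD 43.5% and 54.4% were C1q-high, against 41.3% and 36.0% of all cells. Cells with Cx3cr1 alone were C1q-high in 95.4% and 97.8% of cases on chow and 88.0% and 70.5% on HFD, and cells with Ccr2 alone in 54.7% and 70.4% against 32.1% and 28.3%. Median depths were 4158 to 4482 UMIs in cells with both, 3653 to 4316 in cells with Cx3cr1 alone, 3105 to 4146 in cells with Ccr2 alone and 2425 to 3142 in cells with neither. Scrublet marked 1, 4, 4 and 1 of the 190, 517, 124 and 193 cells with both as doublets.

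Along Ly6c2, Ccr2 was lowest and Cx3cr1 highest in cells without Ly6c2 in both chow mice, while the bins that held Ly6c2 had no common order. In cells without Ly6c2, Ccr2 was at 255 and 296 CPM on chow and 499 and 500 on HFD, and in cells with 5 to 10 Ly6c2 UMIs per 10000 it was at 937 and 835 against 887 and 695, where diets overlapped. At 10 to 20 it was at 566 and 1356 on chow, from 24 and 22 cells, and at 1165 and 953 on HFD. At 20 or more, Ccr2 was at 604 and 649 on chow, from 15 and 32 cells, and at 1282 and 991 on HFD. Cx3cr1 went from 472 and 521 on chow without Ly6c2 to 53.3 and 144 at the highest Ly6c2, and from 176 and 134 to 47.9 and 66.5 on HFD. From the bin of 5 to 10 to that of 20 or more, Ccr2 and Cx3cr1 were both lower on chow, and in HFD mouse 3 both were higher, with Cx3cr1 going from 32.9 to 66.5. The diets overlapped in Cx3cr1 only in that last bin.

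Along MHC II, whose bins hold equal shares of cells over the mice, the diets differed in the shape of the curve. On chow Cx3cr1 was at 222 and 239 CPM in the lowest MHC II bin, 609 and 617 in the middle bin and 380 and 410 in the highest. On HFD it was at 57.2 and 69.3, 91.2 and 94.4, and 348 and 263 in those bins. Ccr2 ran from 529 and 639 to 247 and 290 on chow and from 1122 and 874 to 283 and 343 on HFD, and only in the highest bin did the diets overlap.

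**Figure D4:**
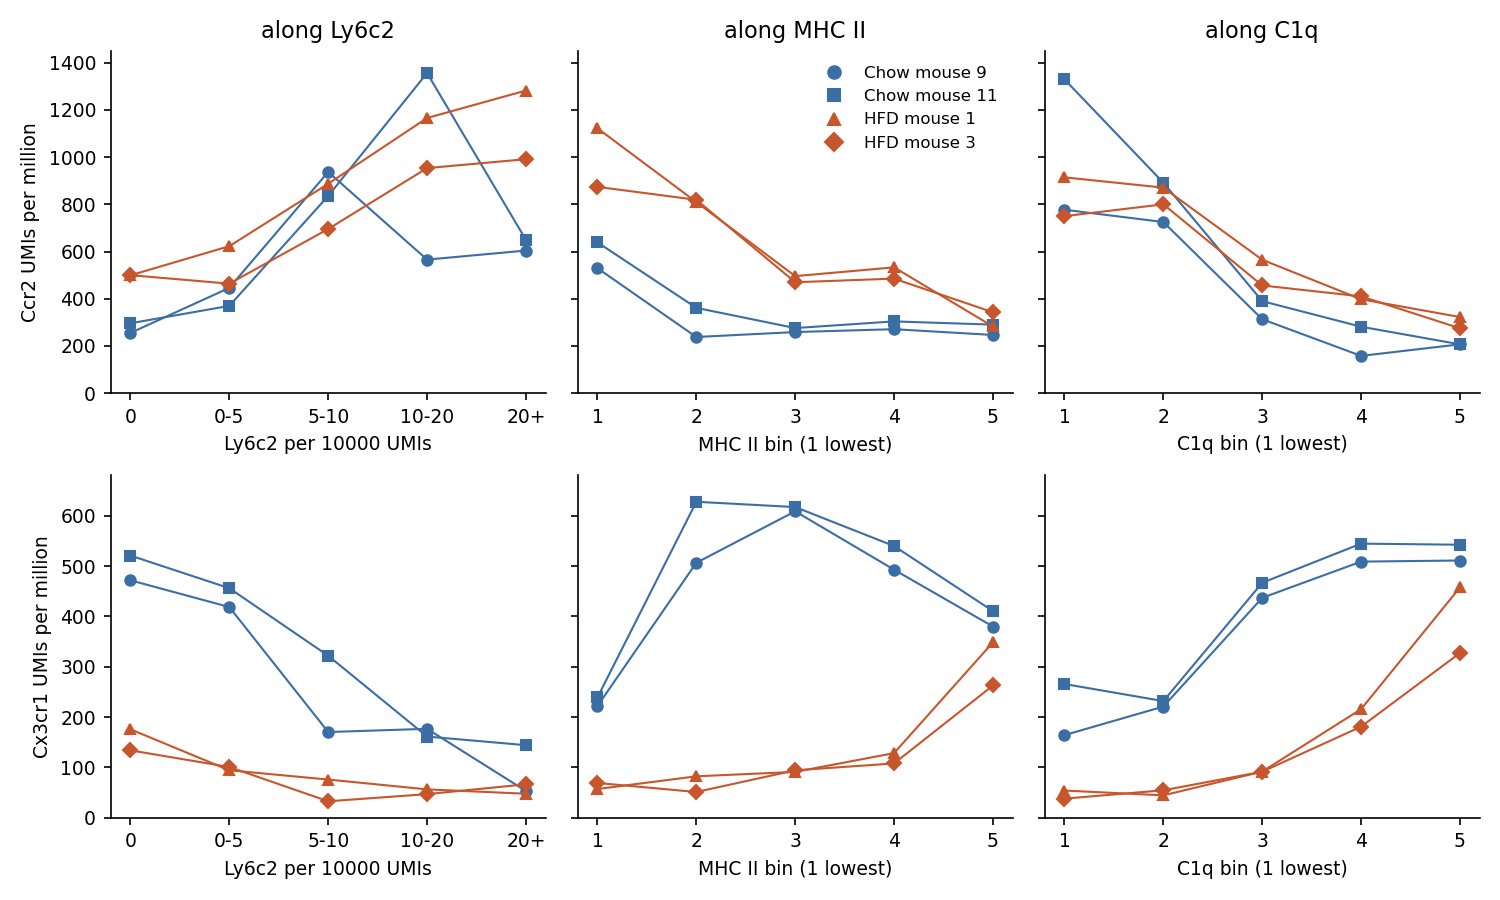
CPM of Ccr2 (top) and Cx3cr1 (bottom) in each mouse along Ly6c2 (UMIs per 10000), and along 5 bins of MHC II and of C1q level. Cx3cr1 of HFD mice lies below that of chow mice in all 5 bins of MHC II and of C1q, and the diets come closest in the highest bin.

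Along C1q, the level of Cx3cr1 on HFD approached that on chow only in the cells richest in C1q. The 5 bins were bounded at 4.76, 66.2, 162 and 215 C1q UMIs per 10000. On chow Cx3cr1 was at 164 and 266 CPM in bin 1, 437 and 467 in bin 3 and 511 and 542 in bin 5. On HFD it was at 54.2 and 38.1, 91.8 and 91.6, and 457 and 327. The log2 fold change between diets was -2.13 (SE 0.35, edgeR adjusted p = 0.00163, 1.33% of genes called) in bin 1, -2.26 (SE 0.23, edgeR adjusted p = 1.7e-05, 3.02% called) in bin 2 and -2.46 (SE 0.19, edgeR adjusted p = 6.3e-07, 11.3% called) in bin 3. It was -1.52 (SE 0.19, edgeR adjusted p = 0.000404, 3.66% called) in bin 4 and -0.46 (SE 0.20, edgeR adjusted p = 0.302, 0.942% called) in bin 5, where it ran from -0.71 to -0.24 with 1 mouse left out and was called in none of these fits. Bin 1 held 81, 28, 360 and 501 cells, and its call was lost without Chow mouse 9 (edgeR adjusted p = 0.0111) and without HFD mouse 3 (edgeR adjusted p = 0.105).

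The diet difference of Cx3cr1 itself differed between the outer bins, by 1.62 on the log2 scale (bin 5 minus bin 1, SE 0.34, edgeR adjusted p = 0.000357), where 0.921% of 4234 genes were called. Without Chow mouse 9 this difference was 2.00 (edgeR adjusted p = 0.0112) and without HFD mouse 3 it was 1.62 (edgeR adjusted p = 0.0160), and the call was lost. For Ccr2 the diet difference was -0.32, -0.05, 0.37, 0.77 and 0.49 from bin 1 to bin 5, and edgeR called none of them. Without Chow mouse 11 the value in bin 4 was 1.22 and called (edgeR adjusted p = 0.00169), and without Chow mouse 9 it was 0.44 (edgeR adjusted p = 0.377). The difference between the outer bins was 0.75 for Ccr2 (SE 0.24, edgeR adjusted p = 0.100). These bins were added after the data had been seen.

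**Figure D5:**
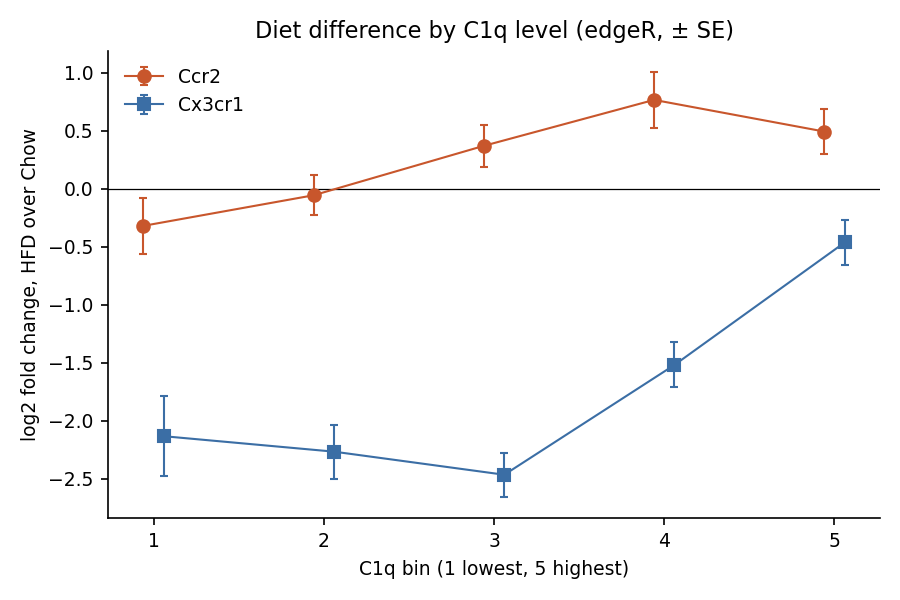
Log2 fold change of Ccr2 and Cx3cr1 between HFD and chow mice in 5 bins of C1q level, with standard errors from edgeR (n = 2 mice per diet). Cx3cr1 lies between -2.46 and -1.52 in bins 1 to 4 and at -0.46 in bin 5.

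Other chemoattractant receptors, their ligands and signalling genes were taken from a list of 49 genes, of which 33 were in the matrix. Over all cells, 24 were tested, of which 1 was called higher on HFD, 7 lower and 16 in neither direction, with a median log2 fold change of -0.20 against -0.01 over all genes. Over all 4955 genes tested, 7.67% were called higher and 8.58% lower. Ccr7, the receptor by which cells migrate to lymph nodes, rose from 12.8 and 12.0 CPM to 120 and 107 (log2 fold change 2.98, SE 0.16, edgeR adjusted p = 0.000148). The same gene is among the dendritic cell markers summed above. The complement receptors C3ar1 and C5ar1 fell, by 2.69 (SE 0.18, edgeR adjusted p = 0.000249) and by 2.03 (SE 0.14, edgeR adjusted p = 0.000266). Ccl7, a ligand of CCR2, fell by 1.63 (SE 0.23, edgeR adjusted p = 0.00311). Cxcr4, the receptor for CXCL12, fell by 0.97 (edgeR adjusted p = 0.00567), Arrb2, a beta-arrestin that ends receptor signalling, by 0.83 (edgeR adjusted p = 0.00474), the chemerin receptor Cmklr1 by 0.82 (edgeR adjusted p = 0.00778) and Ccrl2, a receptor that binds chemerin without signalling, by 0.60 (edgeR adjusted p = 0.00759). Without HFD mouse 1, and likewise without HFD mouse 3, only C3ar1 and C5ar1 of these 8 genes were still called.

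Fewer genes of the list were called within gates. In Ly6c2+ MHC II-low cells 0 of 23 passed in edgeR's quasi-likelihood test, its likelihood-ratio test or DESeq2, with an unadjusted p under 0.05 for 4 higher genes and 1 lower gene in the first, where 0.669% of all genes were called higher and 0.518% lower. In Ly6c2- MHC II-high cells 0 of 23 rose in all 3 tests (1 at an unadjusted p under 0.05). In the likelihood-ratio test 4 fell, in DESeq2 3 and in the quasi-likelihood test 2. In the last, 7 were lower at an unadjusted p under 0.05. The 2 called there were C5ar1 (log2 fold change -1.95, edgeR adjusted p = 0.00296) and Ccl7 (-3.89, edgeR adjusted p = 0.00432). Over all genes in this gate 0.499% were called higher and 0.52% lower. Both calls were lost without HFD mouse 1 and without HFD mouse 3, that of C5ar1 also without Chow mouse 9 and that of Ccl7 also without Chow mouse 11. In C1q-high cells 1 rose and 2 fell of 25, and over all genes 4.99% were called higher and 4.67% lower, so the 3 calls lay near the general share. Ccr7 rose there with a log2 fold change of 3.11 (edgeR adjusted p = 2.1e-05), C3ar1 fell by 1.83 (edgeR adjusted p = 0.000323) and C5ar1 by 1.35 (edgeR adjusted p = 0.00104). Leaving out either chow mouse gave 2 higher and 3 lower calls, while the call of Ccr7 was lost without HFD mouse 1 and, with that of C5ar1, without HFD mouse 3. The inflammatory receptor gene Ccr1 was not called, with a whole-mouse log2 fold change of 0.03. From Ly6c2+ MHC II-low to C1q-high cells 10 of 25 rose and 1 fell, against 9.18% of all genes called higher and 8.76% lower. Without HFD mouse 1, 6 of 24 rose, and without each other mouse 7 or 8. Among those that rose were C3ar1 (3.68, edgeR adjusted p = 5.5e-09) and C5ar1 (2.21, edgeR adjusted p = 8.1e-07). The chemokine genes Ccl8 (4.44, edgeR adjusted p = 1.5e-08), Ccl12 (3.52, edgeR adjusted p = 3.2e-09) and Ccl7 (2.60, edgeR adjusted p = 0.000276) rose too. The gene that fell was Rac2, a small GTPase of leukocyte migration, by 0.80 (edgeR adjusted p = 8.3e-05). Cx3cl1, the ligand of CX3CR1, was not among the genes of the matrix used here.

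The genes whose levels ran most like each receptor were sought over 14 sums of gates and mice, among 4946 genes. Most like Ccr2 were Btg1, an antiproliferative factor (Pearson r = 0.91), the leukotriene B4 receptor gene Ltb4r1 (0.90), Sirpb1a (0.88), the actin crosslinker Flna (0.88) and Glipr2 (0.88), and most opposite were Herpud1 (-0.90), Blvrb (-0.89) and the tetraspanin Cd63 (-0.88). Most like Cx3cr1 were Fcrls (0.96), Ms4a14 (0.95), the platelet factor 4 gene Pf4 (0.95), Adgre1, which encodes F4/80 (0.94), and the lysosomal Hexa (0.93), and most opposite were the translation factor Eif5a (-0.93), Bloc1s2 (-0.92) and the kinase Map4k1 (-0.92). Ccr2 and Cx3cr1 themselves gave r = -0.55 and Spearman's rho = -0.39 over the same sums. The sums come from 4 libraries and share their depth and diet, so these values are descriptions.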

How the data were processed

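Colonic monocytes and macrophages of 4 mice were analysed from raw UMI counts per gene and cell, which the authors deposited without normalization. Reads had gone through kallisto 0.46.0, then BUStools 0.39.2, against transcripts of Ensembl release 97 (mm10), and the authors removed low-quality cells, genes of low abundance and cells that a reference did not annotate as macrophages or monocytes. The mouse of each cell came from its name. Symbols and coordinates came from GENCODE M21 (GRCm38), with 11819 of 11820 identifiers matched, and promoter sequences from RefSeq.

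Counts were summed per mouse, gate or bin, each mouse giving 20 cells or more, and tested with edgeR (version 4.0.16, R 4.3.3), TMM normalization, the quasi-likelihood test and Benjamini-Hochberg adjustment over all genes at an FDR of 1%. Genes needed a CPM above 1 in 2 sums and a UMI in 5% of cells. CPM levels are plain ratios of summed counts, and fold changes follow TMM. Standard errors were taken from the fold change and its F statistic. The code was tested on simulated data. Doublets marked by Scrublet (scanpy 1.11.5, 41 of 5420 cells, 0.756%) were kept. Depth was 3832283 and 7947893 UMIs in Chow mice 9 and 11 and 3824228 and 5584175 in HFD mice 1 and 3, and counting precision follows from the UMIs given. Alternatives changed the normalization, test (likelihood ratio, DESeq2 1.42.0), low-count filter, gate thresholds, doublets, mouse term, thinning and mice. Gate weights over 4 gates or without the Ly6c2+ MHC II-high gate, and listed genes called without each mouse, were added after the data had been seen.

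Named genes were both receptors, listed genes past the threshold in a diet comparison, listed receptors, and the 5 most alike and 3 most opposite genes. Ligands and other listed genes named for a step between gates were chosen after their values were seen. The members and lists were chosen with earlier results of these data known. Flow cytometry of the study was not used here. The results of 2 listed genes are not reported here.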

Additional observations from a re-analysis of the deposited data

Results flagged for a closer look

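The Cx3cr1 difference between diets was not the same along C1q. It was -2.13 on the log2 scale in the bin of lowest C1q and -0.46 in the bin of highest C1q (-0.71 to -0.24 with 1 mouse left out), and the difference between these effects was 1.62 (edgeR interaction test, adjusted p = 0.000357, n = 2 mice per diet). The diets did not overlap in either bin, with Cx3cr1 at 54.2 and 38.1 CPM on HFD against 164 and 266 on chow in the lowest bin, and 457 and 327 against 511 and 542 in the highest. The call was lost without Chow mouse 9 or without HFD mouse 3. Bin 1 holds 28 cells of Chow mouse 11. The part of free RNA or of C1q differences within a bin was not tested.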

How the results depend on the processing

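The whole-mouse, C1q-high and step-to-C1q-high differences of Cx3cr1 kept their direction under every alternative run. In whole mice the Ccr2 value ranged from 0.83 to 1.06 with 1 mouse left out, when the lone mouse of a diet is assumed to vary like the others. In C1q-high cells Ccr2 passed the threshold with RLE normalization (0.73), the likelihood-ratio test (0.72), DESeq2 (0.73), no filter on low counts (0.76) and a C1q threshold of 30 (0.75), and ranged from 0.58 to 0.87 without each mouse. In Ly6c2+ MHC II-low cells Cx3cr1 passed with the likelihood-ratio test (-1.55), a Ly6c2 threshold of 1 UMI (-1.83) and a C1q threshold of 30 (-1.60), and ranged from -1.94 to -0.95 without each mouse. In Ly6c2- MHC II-high cells Ccr2 passed with the likelihood-ratio test (-0.83), and Cx3cr1 did not without the low-count filter (-2.50) or at an MHC II threshold of 600 (-2.31), and ranged from -3.13 to -2.31 without each mouse. The interaction for Cx3cr1 changed sign at a Ly6c2 threshold of 1 UMI (0.13) and a C1q threshold of 100 (0.27), and ranged from -0.67 to 0.23 without each mouse. From Ly6c2+ MHC II-low to Ly6c2- MHC II-high cells Ccr2 passed in HFD mice alone (-0.91) and changed sign in chow mice alone (0.21). Cx3cr1 at that step changed sign at a C1q threshold of 100 (0.43), without the term for mouse (0.076) and in chow mice alone (0.46), and ranged from -0.40 to 0.059 without each mouse. From Ly6c2- MHC II-high to C1q-high cells Ccr2 passed with the likelihood-ratio test (-0.95), no filter (-0.77), a C1q threshold of 100 (-1.002), the step averaged over diets (-0.95) and chow mice alone (-1.67), and ranged from -1.22 to -0.56 without each mouse. Without the term for mouse Cx3cr1 no longer passed at that step (1.99) or from Ly6c2+ MHC II-low to C1q-high cells (2.07). The cause of these changes was not tested.

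By C1q bin, leaving out each mouse gave -0.72 to 0.022 for Ccr2 and -2.57 to -1.91 for Cx3cr1 in bin 1, -0.19 to 0.11 for Ccr2 in bin 2, 0.21 to 0.55 for Ccr2 in bin 3, -0.71 to -0.24 for Cx3cr1 in bin 5, 0.44 to 1.22 for Ccr2 in bin 4 and 1.48 to 2.00 for the Cx3cr1 difference between bins 5 and 1. In joint detection over all cells the HFD minus chow difference in percentage points was, without thinning, -10.8 for both, 42.3 for Ccr2 alone and -34.0 for Cx3cr1 alone. Thinned to 1000 UMIs it was -3.54, 28.5 and -21.7, with -3.19 for neither, and thinned to 3000 UMIs 43.0 for Ccr2 alone and -37.1 for Cx3cr1 alone. Without the deepest 5% of cells it was 37.8 for Ccr2 alone and -0.788 for neither. The Ccr2 share differed by 13.7 points in Ly6c2+ MHC II-low cells at a Ly6c2 threshold of 1 UMI, and at a C1q threshold of 100 by 22.1 in Ly6c2- MHC II-high and 32.1 in C1q-high cells.

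The number of genes called, against which the receptors are read, moved more. It ran from 119 to 1307 in whole mice (805 as reported), 0 to 111 in Ly6c2+ MHC II-low (55), 0 to 262 in Ly6c2- MHC II-high (47) and 94 to 830 in C1q-high cells (492), from 10 to 119 for the interaction (43), and over the steps from 88 to 552 (315), 38 to 439 (184) and 539 to 1342 (901). No paired analysis was possible because the diets share no replicate numbers. With 2 mice per diet and down to 16 Cx3cr1 UMIs in a sum, small differences were not detectable.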
